A study of Mus musculus with 9 samples.

Results

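The genes for voltage-gated sodium channels, voltage-gated calcium channels, hyperpolarization-activated (HCN) channels and connexins were followed across 9 Affymetrix arrays of whole mouse hearts. Members were the probe sets whose platform gene symbol starts with Scn and a number and the letter a or b, with Cacna, Cacnb or Cacng, with Hcn, or with Gja, Gjb, Gjc or Gjd, which gave 54 genes of the 20239 that carry 1 symbol. Probe sets with no listed symbol are unnamed, and genes of these families among them are not analysed here. There were 3 groups of 3 male C57BL/6 mice, an inbred laboratory strain, and each array is 1 heart. All mice, sham included, received an adeno-associated virus (AAV) with an MLC (myosin light chain) promoter at 8 weeks of age, operation came 4 weeks afterwards, and hearts were frozen another 4 weeks on. The control cargo was luciferase, and the test cargo was the stretch of histone deacetylase 4 from amino acid 1 to 201, called HDAC4-NT below. The groups were sham surgery with luciferase, transaortic constriction (TAC, a narrowing of the aorta that loads the left ventricle with pressure) with luciferase, and HDAC4-NT given before TAC. HDAC4-NT was given to no unloaded heart, so any change against sham in that group combines load and cargo.

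Sodium channels open first in the cardiac action potential and carry the fast upstroke, and calcium channels follow and start contraction. A channel of either kind has a pore-forming subunit, and auxiliary subunits bring it to the membrane and set its gating. HCN channels carry the pacemaker current of the sinoatrial node. Connexins assemble into gap junctions, through which the impulse passes from cell to cell, and the ventricle, the atria with the conduction system, and arterial endothelium use different connexins.

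Values are log2 expression as deposited (RMA), so a difference of 1 is a 2-fold change, and no level of one gene is compared with that of another because probe sets differ in brightness. The test took genes that exceeded log2 5.66, the 40th percentile of the table, on at least 3 of 9 arrays. That left 27 of the 54 members and 12597 genes in all. The 27 members outside the test lay between 5.19 and 5.66 on every array, and none of them moved by more than 0.21 over the 9 arrays. Values this low are called near background here, which was not tested because the table holds no detection p. Changes were called with limma, fitted on all 12597 genes and 9 arrays, where the p adjusted by Benjamini and Hochberg's method was under 0.05. Fold changes had a median standard error of 0.07, a precision set by 3 arrays a group.

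Defining markers of heart muscle were present: Myh6, Tnnt2, Actn2, Ryr2 and Tnni3 lay between 11.74 and 13.51 on all arrays. Atrial tissue varied between hearts. The mean of the atrial genes Myl4, Myl7, Sln and Mybphl ran from 6.43 to 7.49 in sham, from 5.98 to 8.07 in TAC-luciferase and from 5.94 to 6.94 in TAC-HDAC4-NT. TAC-luciferase hearts 2 and 3 stood apart from heart 1 in clock genes, with a difference between activator and output genes of 0.47 and 0.98 against -0.74. That difference was -0.81, -0.24 and -0.12 in sham and -1.70, -1.05 and -1.10 in TAC-HDAC4-NT, whose hearts lay below all others. The sample codes of TAC-luciferase hearts 2 and 3 begin with 9 and that of heart 1 with 8. Those of the sham hearts begin with 12, and those of the TAC-HDAC4-NT hearts with 3, 4 and 4. The labels do not say what this number is. No group shares it with another, so whatever it marks cannot be told apart from group. Hdac4 itself lay between 6.88 and 7.19 on all arrays, at 6.97 ± 0.09 in TAC-luciferase and 6.95 ± 0.08 in TAC-HDAC4-NT (SD, n = 3). The position of its probes is not known here, and the values check nothing about delivery of the fragment.

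**Figure D1:**
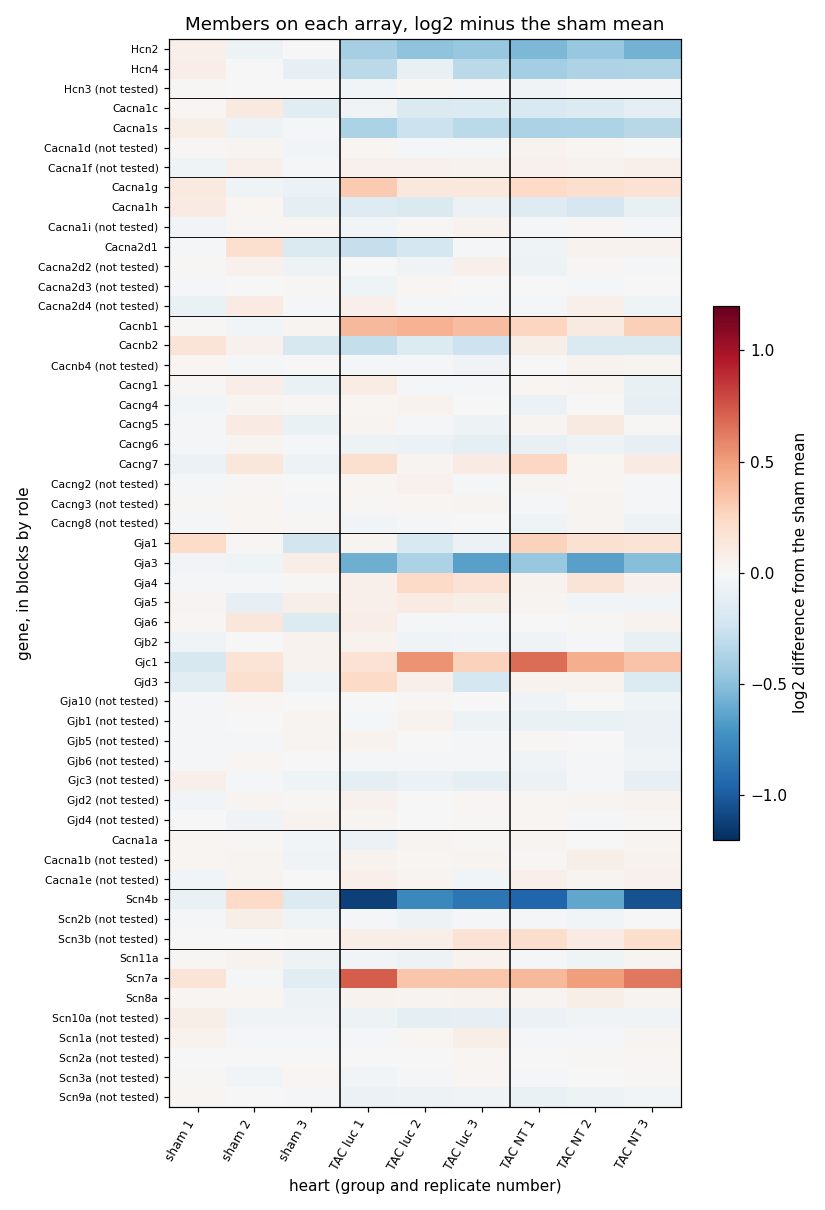
Difference of each of the 54 members from its sham mean (colour, log2 units) on each of the 9 arrays (columns, by group and replicate number), with genes in blocks by role and members outside the test marked. Scn4b is the deepest blue row, with group means of 5.71 and 5.76 after TAC against 6.63 in sham, and most rows stay near white.

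TAC with luciferase was set against sham with luciferase to ask what pressure load did to these genes. Scn4b, Hcn2, Hcn4, Cacna1s and Gja3 fell, and Scn7a and Cacnb1 rose. These are 7 of the 27 tested members (25.9%), where 26.1% of all genes tested passed, so the share of members that changed was near that of the whole table. By direction, 5 members fell (18.5%, against 14.9% of all genes) and 2 rose (7.41%, against 11.2%). The median log2 fold change of the tested members was -0.02, against -0.01 over all genes. Under cyclic loess scaling 3 rose and 4 fell, where 25% of all genes were called. Without TAC-luciferase heart 1 the split was also 3 and 4, with Gja4 called and Hcn4 not, and without hearts 2 and 3 it was 2 and 5. In TAC with HDAC4-NT against sham, 8 of 27 members passed (29.6%, against 22.8% of all genes), 5 lower (12.3% of all genes) and 3 higher (10.5%), and Gjc1 was the member called there and not in TAC-luciferase. Both comparisons use the same sham hearts, so their values are given side by side and neither supports the other. Where a gene belongs to 1 cell type, fewer such cells and less RNA per cell cannot be told apart in whole hearts.

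**Figure D2:**
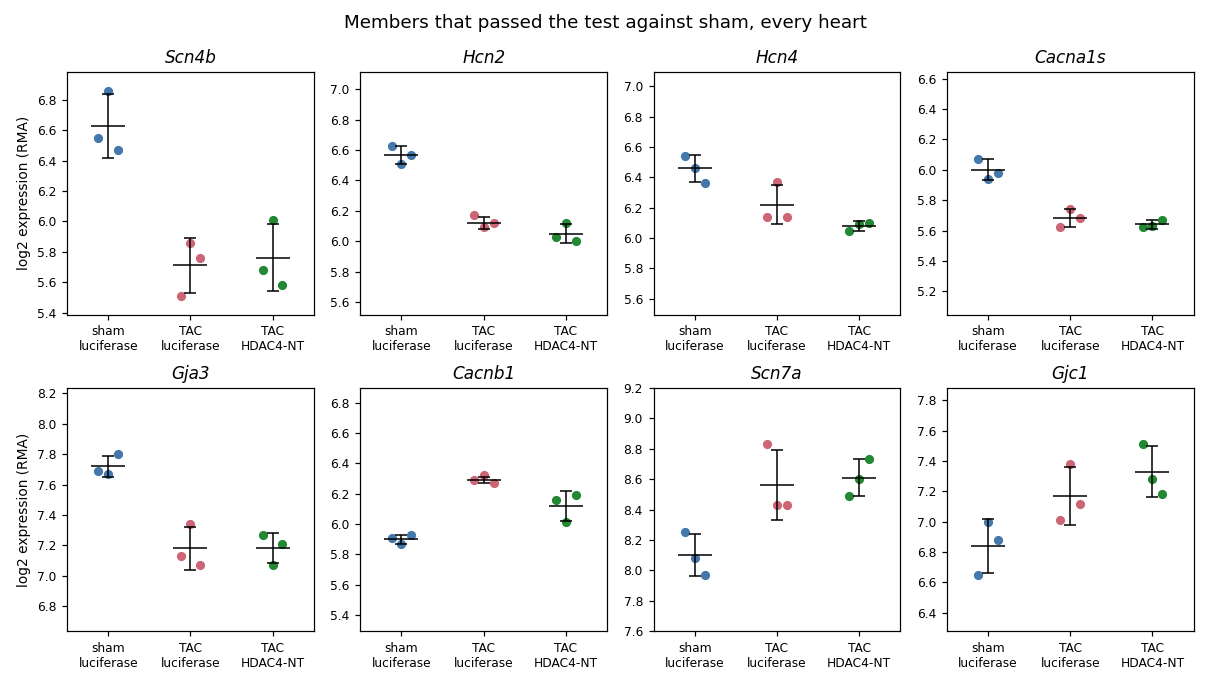
Log2 expression (RMA, vertical axis, 1.6 log2 units high in each panel) of the 8 members that passed in at least 1 comparison with sham, for each heart (points) with the group mean and SD (black, n = 3). In Scn4b the 3 sham hearts lie at 6.47 to 6.86 and the 6 TAC hearts at 5.51 to 6.01.

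Scn4b encodes an auxiliary beta subunit that modulates the gating of the cardiac sodium channel, and it fell most. Its log2 level was 6.55, 6.86 and 6.47 in the sham hearts, 5.51, 5.86 and 5.76 with TAC and luciferase, and 5.68, 6.01 and 5.58 with TAC and HDAC4-NT. All 6 loaded hearts lay below every sham heart, and the TAC groups overlapped each other. The fall was 0.92 log2 units in TAC-luciferase (1.89-fold lower, SE 0.14, adjusted p 0.00151) and 0.87 in TAC-HDAC4-NT (1.82-fold lower, adjusted p 0.00222). Scn4b was the single member that changed by 1.5-fold or more. Of the 9 arrays, 7 lay above the filter level, so the values after TAC come close to background.

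Its upstream window is shown with those of 3 other members that changed, Hcn2, Gja3 and Scn7a, because these 4 include the largest fall and the largest rise among members. Each is the 250 bases before the RefSeq start of the gene (GRCm38.p6), written 5′ to 3′ on the gene's strand. Capitals mark matches on either strand to any motif searched. For GATA factors the letters were AGATAA. For the TATA box they were TATAAA, and for the E-box CANNTG. NKX2-5 was searched as AAGTG and AP-1 as TGANTCA, and the MEF2 site is given by name.
Scn4b, chr9:45138374-45138623, plus strand: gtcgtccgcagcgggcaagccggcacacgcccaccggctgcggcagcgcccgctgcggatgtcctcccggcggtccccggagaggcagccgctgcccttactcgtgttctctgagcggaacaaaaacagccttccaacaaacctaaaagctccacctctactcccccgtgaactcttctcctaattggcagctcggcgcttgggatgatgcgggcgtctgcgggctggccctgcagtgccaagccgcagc
Hcn2, chr10:79716384-79716633, plus strand: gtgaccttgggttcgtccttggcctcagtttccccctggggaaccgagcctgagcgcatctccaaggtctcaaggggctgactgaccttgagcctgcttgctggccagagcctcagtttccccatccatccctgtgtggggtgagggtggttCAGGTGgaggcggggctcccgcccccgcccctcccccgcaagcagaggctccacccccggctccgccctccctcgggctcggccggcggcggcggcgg
Gja3, chr14:57058031-57058280, minus strand, the first of 2 listed starts: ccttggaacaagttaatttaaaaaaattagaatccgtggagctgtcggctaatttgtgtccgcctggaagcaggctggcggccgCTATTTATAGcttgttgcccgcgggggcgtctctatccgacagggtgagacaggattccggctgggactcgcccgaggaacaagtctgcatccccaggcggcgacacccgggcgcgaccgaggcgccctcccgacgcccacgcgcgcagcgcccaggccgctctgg
Scn7a, chr2:66784911-66785160, minus strand: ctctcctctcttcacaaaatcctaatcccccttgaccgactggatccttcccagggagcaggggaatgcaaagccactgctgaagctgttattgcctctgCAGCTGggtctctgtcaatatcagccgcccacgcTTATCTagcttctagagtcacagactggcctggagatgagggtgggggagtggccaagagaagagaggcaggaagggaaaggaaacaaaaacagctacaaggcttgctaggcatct
The Scn4b window holds none of these motifs and the Hcn2 window 1 E-box, which 66.2% of 32851 RefSeq windows of this length also hold. The Gja3 window holds a MEF2 match ending 157 bases before the start, which overlaps a TATA box match and is found in 2.92% of windows (the TATA box in 12.4%). Windows were searched for 7 of the 8 called members, and no other window held a MEF2 match. The window of the second Gja3 start, not shown, holds 3 E-boxes and no MEF2 match. Scn7a has a GATA match (9.99% of windows) 111 bases before its start and an E-box. Their GC content was 66% for Scn4b, 70.4% for Hcn2, 62.8% for Gja3 and 53.2% for Scn7a, against a median of 52.4% over all windows. A match is a stretch of letters and not a measured binding site. Promoters were listed for 42 of the 54 members.

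Scn7a, an atypical family member that senses sodium and is known from glia, rose. It was measured at 8.25, 8.08 and 7.97 in sham, 8.83, 8.43 and 8.43 in TAC-luciferase and 8.49, 8.60 and 8.73 in TAC-HDAC4-NT. Every loaded heart exceeded the highest sham heart. The rise was 0.46 log2 units in TAC-luciferase (SE 0.12, adjusted p 0.0193 in limma) and 0.51 in TAC-HDAC4-NT (SE 0.12, adjusted p 0.014). The first call was lost without sham heart 2 or 3 (adjusted p 0.0547 and 0.0668), and the second without sham heart 3 or HDAC4-NT heart 3 (0.0531 and 0.0557) and with clock genes as a covariate, where the difference was 0.33 (0.103). Of 5 fibroblast markers, Dcn (0.44 and 0.48) and Col1a1 (1.44 and 1.62) rose in both comparisons, where 11.2% and 10.5% of all genes rose. Dpep1 stood at -0.39 in TAC-luciferase, not called, and at -0.71 in TAC-HDAC4-NT, called lower. Pdgfra (0.13 and 0.24) and Tcf21 (0.03 and 0.25) were not called. The mean of the 5 was 8.49 to 8.55 in sham, 8.77 to 9.02 in TAC-luciferase and 8.82 to 9.0 in TAC-HDAC4-NT. Of 5 macrophage markers, 2 rose in TAC-luciferase (11.2% of all genes did) and 4 in TAC-HDAC4-NT (10.5%). Their mean was 6.77 to 6.94 in sham, 7.21 to 7.37 in TAC-luciferase and 7.27 to 7.33 in TAC-HDAC4-NT. Of Schwann cell markers 0 of 3 tested were called, where 26.1% and 22.8% of all genes were. Their 5-gene mean was 5.71 to 5.81 on all arrays. The part of other cells in the rise of Scn7a was not tested.

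The remaining sodium channel genes showed no call. Among pore genes, Scn8a, a neuronal type also present at low level in heart, stood at 0.04 in TAC-luciferase and 0.05 in TAC-HDAC4-NT, and Scn11a, a sensory neuron type, at -0.02 and -0.01. Scn1a, Scn2a, Scn3a, Scn9a and Scn10a, all best known from neurons, and the beta subunit genes Scn2b and Scn3b were outside the test. Scn3b lay at 5.40, 5.40 and 5.41 in sham, 5.48, 5.48 and 5.57 in TAC-luciferase and 5.61, 5.50 and 5.61 in TAC-HDAC4-NT. The sham hearts were the lowest, yet the whole spread lies under the filter level. Fitted with no filter, Scn3b stood at 0.17 in TAC-HDAC4-NT against sham (adjusted p 0.0232 in limma) and 0.11 in TAC-luciferase (adjusted p 0.0995).

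Both tested HCN genes fell. Hcn2, a subunit of the pacemaker current that is also found in ventricle, was at 6.63, 6.51 and 6.57 in sham, 6.17, 6.09 and 6.12 in TAC-luciferase and 6.03, 6.12 and 6.00 in TAC-HDAC4-NT. The sham hearts stood clear of all 6 loaded hearts, and the scatter within groups was small (SD 0.06, 0.04 and 0.06, n = 3). It fell by 0.45 log2 units in TAC-luciferase (1.36-fold lower, SE 0.05, adjusted p 0.000413) and by 0.52 in TAC-HDAC4-NT (1.44-fold lower, adjusted p 0.000201). Among the 27 tested members Hcn2 had the smallest adjusted p in either comparison, and it kept both calls without each array in turn (adjusted p at most 0.00236).

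Hcn4, the main pacemaker channel of the sinoatrial node, had sham values of 6.54, 6.46 and 6.36. After TAC it was at 6.14, 6.37 and 6.14 with luciferase and at 6.05, 6.09 and 6.10 with HDAC4-NT. TAC-luciferase heart 2 overlapped the sham hearts, whereas the HDAC4-NT hearts lay below every heart of both other groups. The fall in TAC-HDAC4-NT was 0.38 log2 units (SE 0.07, adjusted p 0.00573). That in TAC-luciferase was 0.24 (SE 0.07, adjusted p 0.04), a call that did not survive leaving out 1 array in 7 of 9 cases, all but sham heart 3 and TAC-luciferase heart 2 (adjusted p up to 0.128). It was also lost with no filter, cyclic loess scaling, array weights, the arrays of these groups alone, the replicate block, or the atrial mean or clock genes as a covariate (adjusted p 0.051 to 0.102), while the difference stayed between -0.24 and -0.20. The part of atrial tissue in the Hcn4 values was not tested beyond that covariate, with which the difference was -0.24 (adjusted p 0.0543). Of the other conduction system markers, Tbx3 fell by 0.45 in TAC-luciferase (adjusted p 0.0196) and stood at -0.31 in TAC-HDAC4-NT (adjusted p 0.091, not called), Tbx18 and Cntn2 were not called in either, and Shox2 and Isl1 stayed near background. Hcn3 lay between 5.46 and 5.51 on all arrays and was outside the test.

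The L-type calcium current of the heart runs through Cacna1c with the auxiliary subunits Cacna2d1 and Cacnb2, and none of the 3 passed in any comparison. Cacna1c, the pore, lay at 10.09, 10.18 and 9.94 in sham, 10.03, 9.90 and 9.91 in TAC-luciferase and 9.89, 9.91 and 9.95 in TAC-HDAC4-NT. The groups overlapped, with differences from sham of -0.12 (95% interval -0.27 to 0.03) and -0.15 (adjusted p 0.23 and 0.152 in limma). Without sham heart 3 the second reached -0.22 (adjusted p 0.0432). Cacna2d1, which raises the number of channels at the surface, was at 9.84, 10.04 and 9.68 in sham, 9.57, 9.64 and 9.84 in TAC-luciferase and 9.80, 9.89 and 9.89 in TAC-HDAC4-NT. Its differences from sham were -0.17 and 0.01, within the scatter of the sham hearts. Cacnb2, the principal cardiac beta subunit gene, was at 9.71, 9.61 and 9.37, then 9.27, 9.40 and 9.31, then 9.63, 9.39 and 9.39 in the same order of groups. Its difference was -0.23 in TAC-luciferase (95% interval -0.45 to -0.02, adjusted p 0.108) and -0.09 in TAC-HDAC4-NT, and without sham heart 3 the first was -0.33 (adjusted p 0.0272).

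Of the tested calcium channel genes, Cacna1s and Cacnb1 changed, in opposite directions. Cacna1s, the skeletal L-type pore, was at 6.07, 5.94 and 5.98 in sham, 5.62, 5.74 and 5.68 in TAC-luciferase and 5.62, 5.63 and 5.67 in TAC-HDAC4-NT. All loaded hearts lay below the sham hearts and close to the filter level of 5.66, which 6 of 9 arrays exceeded. It fell by 0.32 (SE 0.05, adjusted p 0.00262) and by 0.36 (SE 0.05, adjusted p 0.00144). Cacnb1, a beta subunit gene that pairs with Cacna1s in skeletal muscle, went the other way, from 5.91, 5.87 and 5.93 in sham to 6.29, 6.32 and 6.27 in TAC-luciferase and 6.16, 6.01 and 6.19 in TAC-HDAC4-NT. The 3 groups did not overlap, with TAC-HDAC4-NT between the others. The rise was 0.39 in TAC-luciferase (SE 0.06, adjusted p 0.00103) and 0.22 in TAC-HDAC4-NT (SE 0.06, adjusted p 0.0197). The latter call was lost without sham heart 2 or HDAC4-NT heart 1 or 3 (adjusted p up to 0.0805), and with clock genes as a covariate, where the difference was 0.20 (0.0998). Of 7 skeletal muscle markers 4 were tested and 0 were called, where 26.1% and 22.8% of all genes were. The 7-gene mean was 5.66 to 5.72 on all arrays. Myh1, Myh2 and Myog were outside the test, whereas Myh4, Actn3, Tnnt3 and Myod1 lay above the filter level on all 9 arrays, Tnnt3 highest at 6.10 to 6.39. The part of other cells in these changes was not tested.

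T-type calcium channels are prominent in pacemaker tissue and in the fetal ventricle. Cacna1g was at 6.38, 6.21 and 6.19 in sham, 6.57, 6.39 and 6.39 in TAC-luciferase and 6.50, 6.45 and 6.43 in TAC-HDAC4-NT, with the sham hearts below the others. The differences were 0.19 and 0.20 (adjusted p 0.0762 and 0.0724, not called), and both passed with cyclic loess scaling (0.0487 and 0.049) and with the replicate block (0.033 and 0.0308). Without sham heart 1 they were 0.25 and 0.26 (0.0351 and 0.0316), and with clock genes as a covariate the first was 0.27 (0.0108). Cacna1h was at 6.10, 6.02 and 5.89 in sham, 5.85, 5.83 and 5.93 in TAC-luciferase and 5.85, 5.80 and 5.91 in TAC-HDAC4-NT. Those groups overlapped, and the differences of -0.13 and -0.15 did not pass (adjusted p 0.156 and 0.123), although without sham heart 3 the second stood at -0.21 (0.0426). Cacna1i was outside the test.

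No other calcium channel gene was called. Cacna1a, a neuronal pore gene, stood at -0.01 and 0.02, and Cacng1, the gamma subunit gene of skeletal muscle, at 0.01 and -0.01. The other tested gamma subunit genes, Cacng4, Cacng5, Cacng6 and Cacng7, lay between -0.09 and 0.12 over both comparisons with sham. The 2 pore genes Cacna1d, known from nodal and atrial cells, and Cacna1f, known from retina, were outside the test. So were Cacna1b, Cacna1e, Cacna2d2, Cacna2d3, Cacna2d4, Cacnb4, Cacng2, Cacng3 and Cacng8.

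Among 8 tested connexins, Gja3, best known from the lens, was called in both comparisons. Its level was 7.69, 7.67 and 7.80 in sham, 7.13, 7.34 and 7.07 in TAC-luciferase and 7.27, 7.07 and 7.21 in TAC-HDAC4-NT. No loaded heart reached the sham range. The fall was 0.54 in both, 1.46-fold and 1.45-fold (SE 0.08 each, adjusted p 0.00134 and 0.00156), and held without each array in turn (adjusted p at most 0.00733). Gjc1, a connexin of nodal tissue and the early heart, was at 6.65, 7.0 and 6.88 in sham, 7.01, 7.38 and 7.12 in TAC-luciferase and 7.51, 7.28 and 7.18 in TAC-HDAC4-NT. All loaded hearts lay above sham, by as little as 0.01 for TAC-luciferase heart 1. Gjc1 rose by 0.48 in TAC-HDAC4-NT (SE 0.13, adjusted p 0.0215) and stood at 0.33 in TAC-luciferase (SE 0.13, adjusted p 0.0863, not called). The call was lost without sham heart 1 or 3 or HDAC4-NT heart 1 (adjusted p up to 0.0818). Between the TAC groups the difference in Gjc1 was 0.16 (95% interval -0.12 to 0.44), so a difference in response was not shown.

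Gja1, the main connexin of working ventricular muscle, was not called. It was at 11.49, 11.28 and 11.05 in sham, 11.30, 11.09 and 11.20 in TAC-luciferase and 11.55, 11.45 and 11.43 in TAC-HDAC4-NT. The TAC-luciferase hearts lay within the sham range, at -0.08 (95% interval -0.31 to 0.15), and TAC-HDAC4-NT stood at 0.21 against sham (adjusted p 0.194). Without sham heart 1 the latter was 0.31 (adjusted p 0.0424). Gja5, which couples atrial, conduction and arterial endothelial cells, lay between 5.63 and 5.83 on all arrays, at 0.08 and -0.01 against sham. Gja4, a connexin of arterial endothelium, was at 5.87, 5.87 and 5.89 in sham, 5.94, 6.11 and 6.05 in TAC-luciferase and 5.92, 6.03 and 5.93 in TAC-HDAC4-NT. Sham was lowest, but the differences of 0.15 and 0.08 did not pass (adjusted p 0.0755 and 0.358), and without TAC-luciferase heart 1 the first was 0.20 (0.027). Of 5 endothelial markers, Cdh5 rose and Kdr and Tie1 fell in TAC-luciferase, where 26.1% of all genes were called. In TAC-HDAC4-NT, where 22.8% were, Cdh5 alone was called, higher by 0.31. Of 6 arterial endothelial markers, Gja4 and Gja5 included, only Sox17 was called, 0.59 higher in TAC-luciferase (adjusted p 0.0305 in limma). Sox17 stood at 7.22 and 7.05 in TAC-luciferase hearts 2 and 3 against 6.46 in heart 1, and at 0.05 in TAC-HDAC4-NT against sham. Gja6, Gjb2 and Gjd3 stood between -0.05 and 0.03 in both comparisons, and Gja10, Gjb1, Gjb5, Gjb6, Gjc3, Gjd2 and Gjd4 were outside the test.

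**Figure D3:**
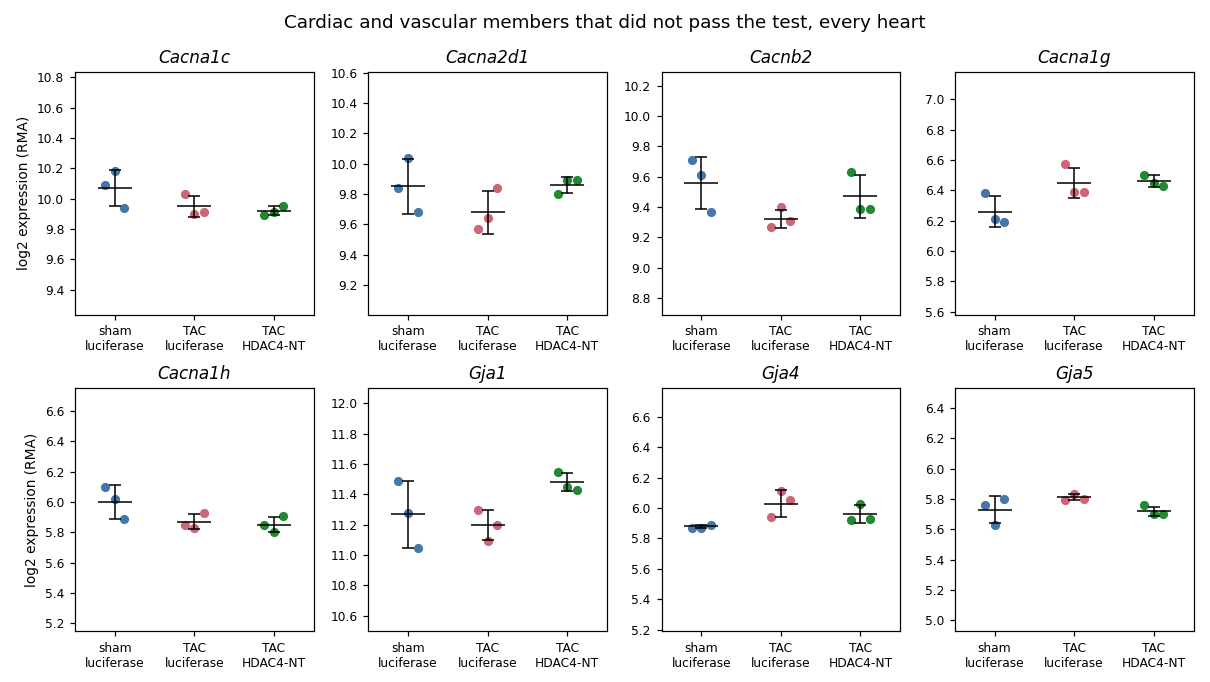
Log2 expression (RMA, vertical axis, 1.6 log2 units high in each panel) of 8 cardiac and vascular members without a call, for each heart (points) with the group mean and SD (black, n = 3). In Cacna1c, Cacna2d1, Cacnb2 and Cacna1h the groups overlap in all comparisons, and in Gja1 the TAC-HDAC4-NT hearts (11.43 to 11.55) lie above the TAC-luciferase hearts (11.09 to 11.30).

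TAC-luciferase and sham did not overlap for 11 of 27 members (40.7%), where 37.4% of all genes tested did not, and TAC-HDAC4-NT and sham for 12 (44.4%, against 39.7%). These include Scn8a and Cacng6, whose differences were at most 0.09 in size.

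TAC with HDAC4-NT was set against TAC with luciferase to ask whether the fragment altered these genes in the loaded heart. None of the 27 tested members passed in limma, where 0.254% of all genes did. An unadjusted p under 0.05 was found for 2 members, Gja1 and Cacnb1, and for 1807 of the 12597 genes. The members' log2 fold changes ran from -0.17 (Cacnb1) to 0.29 (Gja1), with a median of 0.00, as over all genes. Gja1 was 1.22-fold higher with HDAC4-NT (SE 0.10, 95% interval 0.05 to 0.52, adjusted p 0.246), and all 3 HDAC4-NT hearts exceeded the TAC-luciferase hearts. Cacnb1 was lower by 0.17 (SE 0.06, 95% interval -0.29 to -0.05, adjusted p 0.203), again with no overlap. Groups did not overlap for 5 members (18.5%, against 20.4% of all genes), which adds Hcn4, at -0.14 (95% interval -0.30 to 0.03), Gja5, at -0.09, and Cacng4, at -0.08.

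A p above the threshold does not show that the groups were alike, so the intervals bound what these arrays allow. For 19 of the 27 members the whole 95% interval lay within 0.3 log2 units of 0. Some of these members lay close to the filter level on all arrays. Examples are Cacna1a (5.73 to 5.83), Gjb2 (5.69 to 5.82), Scn8a (5.57 to 5.70) and Scn11a (5.58 to 5.68). RMA compresses low values, so a narrow interval there does not bound a change in the transcript. That limit also touches Scn4b and Cacna1s, whose values after TAC come close to background. The share of all genes with such intervals was not counted. For the members that fell under load, the interval was -0.27 to 0.36 in Scn4b, -0.19 to 0.05 in Hcn2, -0.16 to 0.08 in Cacna1s and -0.18 to 0.19 in Gja3. Among these, the upper bound in Hcn2 is under its fall of 0.45 with load, and that in Gja3 is under 0.54. Each fall and its interval share the TAC-luciferase hearts. The interval in Scn4b is not set against its fall of 0.92, because its values after TAC come close to background. For Cacna1c it was -0.18 to 0.12, for Cacna2d1 -0.04 to 0.40 and for Cacnb2 -0.07 to 0.36. Without any 1 array, and in all other settings run, 0 members passed in this comparison. With array weights Gja1 came close, at 0.34 (adjusted p 0.051 in limma), where 6.57% of all genes passed.

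**Figure D4:**
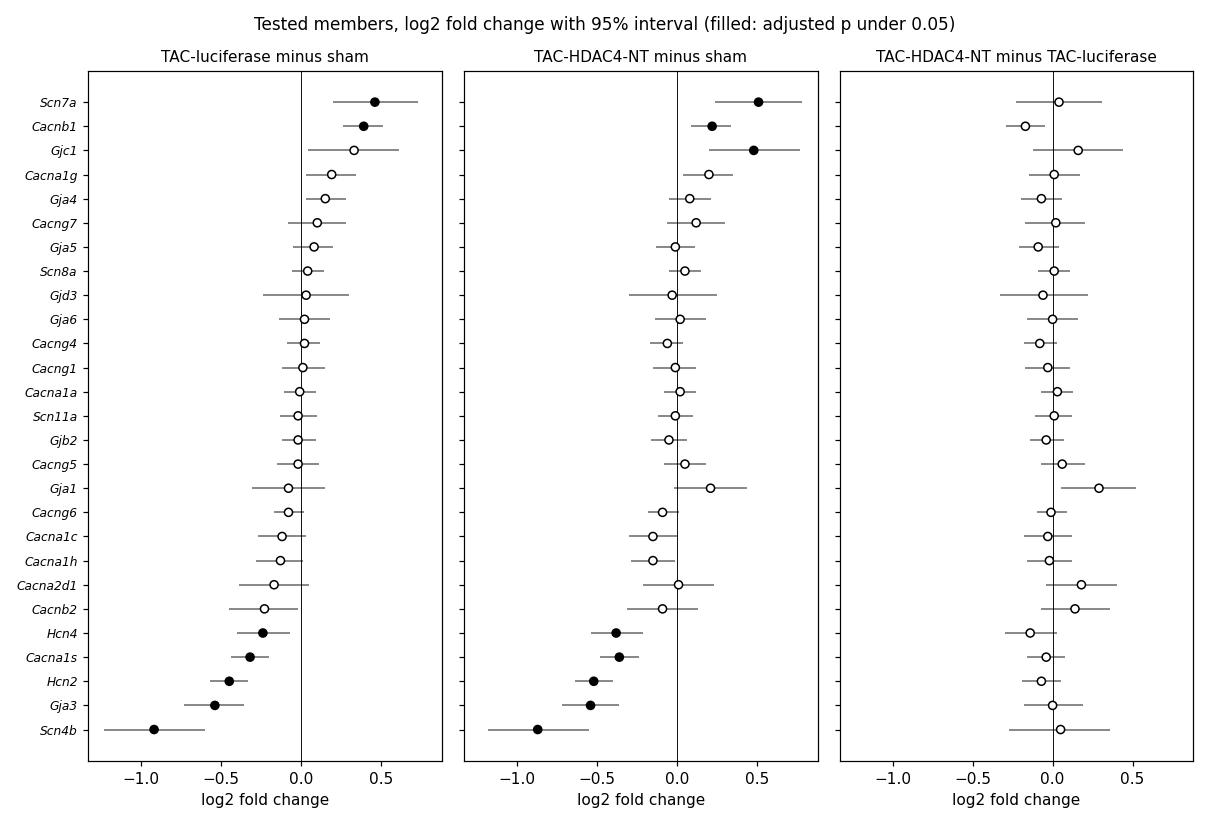
Log2 fold change (horizontal axis) with its 95% interval (grey lines) of the 27 tested members (rows, ordered by the first panel) in the 3 comparisons, filled where the adjusted p was under 0.05. Filled points appear in the panels against sham, from -0.92 for Scn4b to 0.51 for Scn7a, and none in the panel that compares the TAC groups.

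Genes whose products bind, anchor or regulate these channels were taken from lists made by function, with results of these data already known. Of 24 channel partners, 16 were tested, and in TAC-luciferase against sham 7 fell and 2 rose, where 14.9% of all genes fell and 11.2% rose. Kcnip2, an auxiliary subunit of the transient outward potassium channel, fell by 0.92 (adjusted p 0.00108), Ank2, which anchors channels to the cytoskeleton, by 0.49, and Gpd1l, which affects the sodium current, by 0.35. Sntb2, a syntrophin scaffold gene, rose by 0.60. Gem, which restrains calcium channels, rose by 0.63 and is named after its values were seen, as is its relative Rrad, which stood at -0.44 (adjusted p 0.0754, not called). High values of Gem lay in TAC-luciferase hearts 2 and 3 (6.63 and 6.54, against 5.90 in heart 1 and 5.69 to 5.77 in sham). In TAC-HDAC4-NT 5 fell and 3 rose, where 12.3% of all genes fell and 10.5% rose. Kcnip2 fell by 0.99 and Fgf13, a sodium channel modulator, by 0.39, and Gem stood at 0.07 and Rrad at 0.13, neither called.

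The intercalated disc holds gap junctions and sodium channels between cardiomyocytes. All 16 of its listed genes were tested, and 5 fell and 2 rose in TAC-luciferase (26.1% of all genes changed), 4 fell and 3 rose in TAC-HDAC4-NT (22.8%). Dsg2, a desmosomal cadherin, fell by 0.70 and by 0.61, and Tmem65, a disc protein, by 0.62 and by 0.49. Xirp1, an actin-binding protein of the disc, rose by 1.13 and 0.57, and Tmem43 by 0.51 and 0.59. The alpha-catenin gene Ctnna3 fell by 0.35 and by 0.39. Medians were -0.03 and 0.05.

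Among 18 regulators of the conduction system 15 were tested, and 5 fell and 2 rose in TAC-luciferase (26.1% of all genes changed) and 4 fell and 2 rose in TAC-HDAC4-NT (22.8%). Tbx5, a transcription factor of atria and conduction tissue, went from 8.27, 8.14 and 8.04 in sham to 7.07, 7.25 and 7.27 in TAC-luciferase and 7.65, 7.66 and 7.51 in TAC-HDAC4-NT. The 3 groups did not overlap. Tbx5 fell by 0.95 (adjusted p 6.6e-05) and by 0.54 (adjusted p 0.00125), and the TAC groups differed by 0.41 (adjusted p 0.0611, not called). Hopx, a homeodomain cofactor, fell by 0.79 and by 0.96, Gata6 by 0.37 and by 0.30, and Tbx20 rose by 0.40 and 0.45. Of 3 pannexins, which form channels related to gap junctions, Panx1 was called higher, at 0.56 (adjusted p 0.000561) and 0.43 (adjusted p 0.00242). Its sham hearts lay at 5.49 to 5.58, under the filter level, which it passed through the 6 loaded hearts alone. The sizes are thus set against a group near background. Between the TAC groups no gene of these 4 lists passed.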

How the data were processed

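Per the labels' protocols, biotin-labelled RNA of 9 whole hearts went onto Affymetrix arrays. RMA, per the submitters' processing notes, gave the log2 values that the authors deposited. The version of RMA, its probe sets' definitions and the build were not given in the sources used here. Quantile normalization gives all arrays the same set of values, and RMA compresses low values. The table holds no detection p.

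Of 21225 probe sets, 20239 have 1 gene symbol in the platform annotation and 986 are not listed. All 20239 matched RefSeq by gene ID. A single model of 9 arrays (R 4.3.3; limma 3.58.1; lmFit, eBayes; residual degrees of freedom 6, prior 3.23) was fitted on the 12597 genes that passed the filter. Groups came from the labels, which give 3 separate animals each.

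Members and lists were chosen with earlier results of these data known. Values on every array are given for members past the threshold and for the principal cardiac members, and for Tbx5. From each partner list up to 4 called genes with the smallest p per comparison are named, mostly by their log2 fold change; others were named as stated. Other settings were filters, priors, scaling, array weights, blocks, thresholds, covariates and left-out arrays. The clock covariate was added after seeing the data.

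The fit was checked on simulated log2 data before use. Plots come from matplotlib 3.10.9 (Python 3.11.15).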

Additional observations from a re-analysis of the deposited data

How the results depend on the processing

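In TAC-luciferase against sham 7 members passed. The count was 1 (Scn4b) with a minimum of 1.5-fold, where 6.15% of all genes passed. Without each array in turn it was 5 to 7, where 19.3% to 25.6% of all genes passed. In TAC-HDAC4-NT against sham 8 passed, with 5 at an adjusted p under 0.01 (12.5% of all genes) and 1 (Scn4b) at a minimum of 1.5-fold (4.84%). Without each array in turn 6 to 9 passed, where 15.2% to 25.1% of all genes did. Stricter thresholds lower these counts by construction. Between the TAC groups the count was 0 in every setting run, while the count over all genes went from 0 with only the arrays of those groups to 827 with array weights. Under cyclic loess scaling 3 rose and 4 fell in TAC-luciferase, where 2 rose and 5 fell as reported, because Cacna1g gained its call and Hcn4 lost it. Whether the replicate numbers pair the hearts was not settled. Same-numbered hearts deviated together with correlations of -0.12 to 0.20, which with 3 arrays a group cannot decide it. With the replicate block 7, 0 and 9 members passed, in TAC-luciferase against sham, between the TAC groups and in TAC-HDAC4-NT against sham. Of all genes 24.3%, 0.841% and 21.2% passed there. No called member reversed its direction in any setting run. With the clock index as a covariate 7, 0 and 6 members passed in the same order, and 21.8%, 0% and 15.4% of all genes. Members near the filter level, Cacna1s and Scn4b among them, are limited by background signal.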
